A study of Homo sapiens with 16 samples.

Results

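The 9 long noncoding RNAs MALAT1, NEAT1, NORAD, TUG1, OIP5-AS1, KCNQ1OT1, LINC-PINT, CYTOR and MIR17HG were followed through siRNA depletion of SETD2 and of hnRNP L in 293T cells. They were chosen by gene name, as well-known long noncoding RNAs, with earlier results of these data known. They are 9 of the 58884 genes in the expression table. Of these 9, 8 had a mean of at least 0.5 TPM (the share of a library's transcripts, per length and scaled to 1000000) over all libraries and were tested among 16300 genes. KCNQ1OT1 was the exception.

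SETD2 is the methyltransferase that trimethylates lysine 36 of histone H3 behind elongating RNA polymerase II, and hnRNP L is an RNA-binding protein with a preference for CA-rich RNA that regulates splicing. The study asked how far the depletion of either protein changes the transcriptome, having found that the proteins bind each other. 293T is a human embryonic kidney line that carries the SV40 large T antigen, which binds and inactivates p53. Wild-type 293T cells were transfected with a scramble siRNA, a SETD2 siRNA or an hnRNP L siRNA, and polyadenylated, ribodepleted RNA was sequenced from 2 libraries per siRNA, all taken at 72 h. The labels number the SETD2 libraries 2 and 3 and the others 1 and 2, and do not tie them to cultures. The study describes its sequencing replicates as independent biological ones, and p-values measure the spread between these libraries.

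Long noncoding RNAs are transcribed like mRNAs but are not known to act by being translated, and many work in the nucleus as scaffolds, as antisense regulators or as hosts of smaller RNAs. MALAT1 sits in nuclear speckles, the compartments that hold splicing factors, and NEAT1 is the architectural RNA around which paraspeckle proteins assemble. NORAD is a cytoplasmic RNA induced by DNA damage and needed for genome stability, and the MIR17HG primary transcript carries the miR-17-92 cluster, a set of miRNAs that promote proliferation.

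The genes differ widely in structure, as annotated on hg38. NEAT1 (chr11:65422774-65445540, plus strand) and MALAT1 (chr11:65497640-65508073, plus strand) are neighbours, and their canonical transcripts are single exons of 22743 and 10434 bases. NORAD (chr20:36045618-36051018, minus strand) is also a single exon, of 5401 bases. TUG1 (chr22:30969245-30979395, plus strand) has 3 exons in its canonical transcript and OIP5-AS1 (chr15:41283958-41322392, plus strand) has 6. LINC-PINT (chr7:130791264-131110176, minus strand) overlaps the protein-coding gene MKLN1 on the other strand, and KCNQ1OT1 (chr11:2597308-2700003, minus strand) lies antisense within KCNQ1. CYTOR (chr2:87454781-87636740, plus strand) and MIR17HG (chr13:91347686-91397592, plus strand) have short canonical transcripts of 1020 and 747 bases, each with 5 exons.

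The miR-17-92 cluster is shown because it is the known product of MIR17HG. Its 6 hairpins lay within 787 bases of hg38 chromosome 13, at chr13:91350605-91351391 on the plus strand. They fell in an intron of the canonical 5-exon transcript and in an exon of 3 of the 16 annotated transcripts. The mature miRNAs below are from RefSeq (GRCh38.p14), 5′ to 3′, and capitals mark the seed, bases 2 to 8. The 6 miRNAs share 4 seeds, one of them common to miR-17-5p and miR-20a-5p and another common to miR-19a-3p and miR-19b-3p.
hsa-miR-17-5p: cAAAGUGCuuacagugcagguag
hsa-miR-20a-5p: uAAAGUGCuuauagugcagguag
hsa-miR-18a-5p: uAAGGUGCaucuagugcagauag
hsa-miR-19a-3p: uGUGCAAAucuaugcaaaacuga
hsa-miR-19b-3p: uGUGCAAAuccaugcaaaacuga
hsa-miR-92a-3p: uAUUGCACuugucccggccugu

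CA repeats, the type of sequence hnRNP L binds, were searched on the sense strand of the canonical transcripts as CACACA, counting overlapping matches. NEAT1 held 10 matches, or 0.44 per kilobase, TUG1 held 2 and NORAD held 1, while the canonical transcripts of the other 6 RNAs held none. For some of these RNAs little of the gene was searched. The canonical transcript of KCNQ1OT1 has 679 bases, while the exons of all its annotated transcripts cover 92625. For LINC-PINT these lengths are 1539 and 27290 bases. Introns and other transcripts were not searched. The motif stood in 51.7% of the 16206 canonical transcripts of tested genes, at a median of 0.144 per kilobase. The longest unbroken CA run of the 9 canonical transcripts was the 9 bases in NEAT1, starting at base 20558 of its 22743 bases. It is shown in capitals from chr11:65443345-65443374 of the plus strand of hg38.
NEAT1 longest CA run: cacacatgtgCACACACACtccgctgtctt
A run of at least 9 bases stood in 7.97% of the canonical transcripts of tested genes, whatever their length. These matches describe letters and are not measured binding sites. NEAT1 has 9 annotated transcripts, and its TPM is that of the whole gene. The TPM therefore does not show how much of the RNA came from transcripts that hold this run.

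As facts on all libraries, each library sums to 1000000 TPM, and between 24225 and 24987 genes were above 0. Mitochondrially encoded genes took 17.52% of the TPM in scramble library 1 and 6.7% to 10.86% in the other 5 libraries. How many reads stand behind a TPM value cannot be seen from the table. SETD2 fell from 13.4 and 11.7 TPM (scramble siRNA) to 4.24 and 4.91 TPM with its own siRNA, a log2 fold change of -1.36 (limma adjusted p = 0.00603). HNRNPL fell from 341 and 457 TPM (scramble siRNA) to 25.04 and 28.8 TPM with hnRNP L siRNA, a log2 fold change of -3.85 (limma adjusted p = 8.48e-06). VIM, a mesenchymal filament gene that 293T cells express, was at 649.5 to 941 TPM, and the renal progenitor factors PAX2 and LHX1 were at 1.65 to 2.79 and 1.07 to 1.69 TPM. Among markers of other cell types, PTPRC was at 0 in every library, COL1A1 was at 2.83 to 5.17 TPM, and another 5 did not exceed 0.4 TPM. NEFM and NEFL, neurofilament genes expressed in 293T cells, were higher with hnRNP L siRNA than with scramble siRNA by 1.21 (adjusted p = 0.00166) and 0.82 (adjusted p = 0.00515) on the log2 scale. The part these markers have in the results below was not tested. In bulk RNA, fewer cells expressing a gene and less RNA per cell cannot be told apart.

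TPM is corrected for transcript length, but not for how well the selection of polyadenylated RNA captured each RNA. Levels of different genes are therefore set side by side only as levels in these libraries. Over the 6 libraries the mean TPM ran from 88 for NEAT1 through 46.7 for NORAD, 40.6 for TUG1, 32.6 for MALAT1, 25.9 for CYTOR, 18 for OIP5-AS1, 10.3 for MIR17HG and 5.31 for LINC-PINT to 0.04 for KCNQ1OT1. NEAT1 stood above 90.9% and MALAT1 above 76.7% of tested genes. LINC-PINT stood above only 37.7% of them, so that the name abundant does not hold for every RNA of the group. Among the 1794 tested genes annotated as lncRNA the median mean level was 1.65 TPM, and 165 genes reached 10 TPM. KCNQ1OT1 lay between 0.03 and 0.05 TPM in every library. With scramble siRNA and with hnRNP L siRNA the values of TUG1 overlapped those of NORAD. With scramble siRNA TUG1 also overlapped MALAT1 while NORAD did not, with hnRNP L siRNA MALAT1 overlapped both NORAD and TUG1, and with SETD2 siRNA MALAT1 overlapped CYTOR. The other neighbours in the order of levels did not overlap between their pairs of libraries, for example NEAT1 and the RNA next below it under each siRNA.

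**Figure D1:**
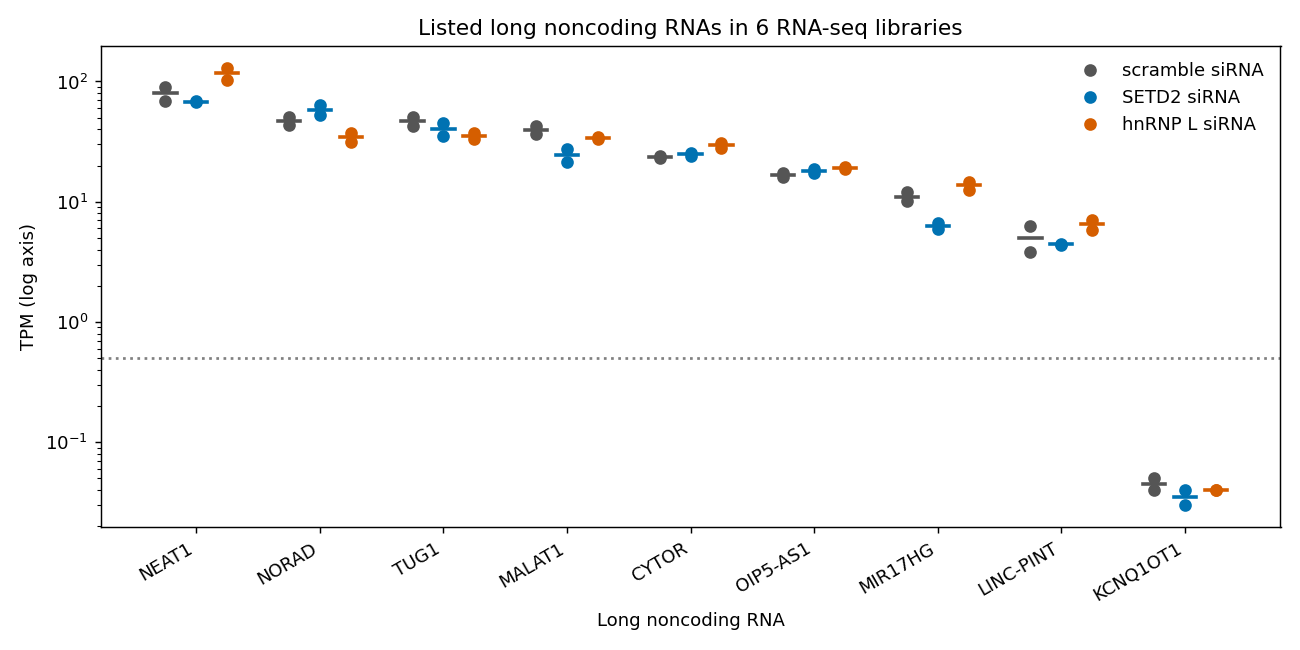
The TPM of each long noncoding RNA is plotted on a log10 axis, with 1 point per library, colours for the 3 siRNAs and short lines for the mean of each pair of libraries. NEAT1 lies above every other RNA of the group in all 6 libraries, and KCNQ1OT1 lies below the dotted line, the filter at 0.5 TPM.

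The first question was whether SETD2 depletion changed these RNAs. A gene was called where limma gave an adjusted p below 0.05 together with a change of more than 1.5-fold. None of the 8 tested RNAs met this, against 0.104% of all tested genes (0.0552% called higher and 0.0491% called lower). At an unadjusted p under 0.05, 2 of the 8 passed, MIR17HG and MALAT1, against 13.1% of all tested genes. The libraries of SETD2 and scramble siRNA did not overlap for 5 of the 8, against 43.5% of all tested genes. The median log2 fold change was -0.175 over the 8 RNAs, -0.0277 over the tested lncRNA genes and 0.0139 over all tested genes.

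MIR17HG and MALAT1 had the largest differences. MIR17HG led in the test as described, while MALAT1 led with quantile normalization (log2 fold changes of -0.75 against -0.73) and without SETD2 library 2 (-0.89 against -0.83). MIR17HG was at 11.97 and 10.1 TPM with scramble siRNA, at 6.65 and 5.98 TPM with SETD2 siRNA, and at 14.7 and 12.6 TPM with hnRNP L siRNA. Both SETD2 libraries lay below the scramble libraries and both hnRNP L libraries lay above them, so that the 3 groups did not overlap. With SETD2 siRNA the mean was 57.3% of that with scramble siRNA, a log2 fold change of -0.75 (SE 0.14, 95% interval -1.07 to -0.44) with an adjusted p of 0.105. When only protein-coding and lncRNA genes were tested, the adjusted p fell to 0.031 and MIR17HG was called lower. The 6 hairpin genes inside MIR17HG were at 0 TPM in every library, so the miRNAs themselves were not measured here.

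MALAT1 was at 43.0 and 36.5 TPM with scramble siRNA, at 27.3 and 21.2 TPM with SETD2 siRNA, and at 34.6 and 33.0 TPM with hnRNP L siRNA. Each depletion lay below scramble in both libraries, and the SETD2 libraries were lowest. The log2 fold change with SETD2 siRNA was -0.71 (SE 0.14, 95% interval -1.03 to -0.39), or 61% of the scramble mean, with an adjusted p of 0.13. Tested among protein-coding and lncRNA genes only, it was called lower as well (adjusted p = 0.031). In that gene set the 2 calls were both lost without scramble library 1 or without SETD2 library 3, and 1 remained, MALAT1, without SETD2 library 2. These leave-one-out fits were added after seeing the data. With hnRNP L siRNA the log2 fold change of MALAT1 was -0.23 (95% interval -0.54 to 0.09, adjusted p = 0.328).

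MALAT1 ends in a cleaved 3′ end without a conventional poly(A) tail, and the libraries were made after poly(A) enrichment. A list of 8 other RNAs without such a tail was chosen after seeing the data. Their summed TPM was 769 and 989.5 with scramble siRNA, 928 and 962 with SETD2 siRNA, and 731 and 878.5 with hnRNP L siRNA. The sum, with the SETD2 libraries between the scramble libraries, is almost wholly that of RN7SL1 and RN7SL2, the RNAs of the signal recognition particle. RMRP, the RNA of RNase MRP, was instead at 5.09 and 6.89 TPM with scramble siRNA, at 14.7 and 10.4 TPM with SETD2 siRNA, and at 10.7 and 4.32 TPM with hnRNP L siRNA. RMRP and RPPH1, whose values follow with the RNase P genes, were both higher in each SETD2 library than in each scramble library. RN7SK, at 24.4 to 37.3 TPM, overlapped between all groups, and VTRNA1-1, TERC and SCARNA2 did not exceed 0.53 TPM. Whether the enrichment step has a part in the MALAT1 values was not tested.

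The other 6 tested RNAs had smaller differences between SETD2 and scramble siRNA, none with an unadjusted p under 0.05 in limma. A small difference is not shown for all of them, as the 95% intervals of NORAD and LINC-PINT reached past a 1.5-fold change. NORAD was at 50.8 and 43.5 TPM with scramble siRNA, at 52.4 and 64.2 TPM with SETD2 siRNA, and at 31.6 and 37.6 TPM with hnRNP L siRNA. NORAD was thus highest with SETD2 siRNA and lowest with hnRNP L siRNA, with no overlap between the groups. Its log2 fold change with SETD2 siRNA was 0.30 (95% interval -0.02 to 0.62, adjusted p = 0.399). NEAT1 was at 89.9 and 69.3 TPM with scramble siRNA, at 67.1 and 68.3 TPM with SETD2 siRNA, and at 103 and 129.97 TPM with hnRNP L siRNA. Its SETD2 libraries lay just under the lower scramble library, and its log2 fold change was -0.22 (95% interval -0.56 to 0.12, adjusted p = 0.546). TUG1, named for its upregulation by taurine and known as a nuclear RNA of the retina and other tissues, had a log2 fold change of -0.22 (95% interval -0.55 to 0.11), and CYTOR, a cytoskeleton-related RNA, one of 0.07 (95% interval -0.17 to 0.30). OIP5-AS1, an abundant cytoplasmic RNA also known as cyrano, had one of 0.11 (95% interval -0.14 to 0.35), and LINC-PINT, a p53-induced RNA, one of -0.13 (95% interval -0.61 to 0.34). Their adjusted p ran from 0.54 to 0.822. The direction of CYTOR turned (-0.029) when TPM were rescaled without mitochondrially encoded genes, and that of LINC-PINT turned (0.19) without scramble library 2.

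hnRNP L depletion was compared with the same scramble libraries, so its values share their errors with those above. None of the 8 RNAs was called in limma, against 6.76% of all tested genes (1.75% higher and 5.01% lower) and 10.6% of tested lncRNA genes (6.13% higher and 4.46% lower). Calls over the whole table were 286 higher and 816 lower, and with median-ratio scaling 429 higher and 517 lower. At an unadjusted p under 0.05, 4 of the 8 passed, against 28.4% of all tested genes, with NEAT1 and CYTOR on the higher side and NORAD and TUG1 on the lower side. The groups did not overlap for 7 of the 8, against 56.6% of all tested genes. The median log2 fold change was 0.239 over the 8 RNAs and -0.0843 over all tested genes.

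NEAT1 passed the adjusted threshold with hnRNP L siRNA but not the fold-change cut-off, the one RNA of the 8 to do so. Both hnRNP L libraries were above both scramble libraries, with a log2 fold change of 0.55 (SE 0.15, 95% interval 0.21 to 0.89) and a fold of 1.47. The adjusted p of 0.0474 was only just under the threshold. With a library left out the log2 fold change ran from 0.37 to 0.74. With median-ratio scaling the log2 fold change was 0.65 (adjusted p = 0.0358) and NEAT1 was called higher. With the replicate number as a block its adjusted p was 0.104. A short gene annotated inside NEAT1, ENSG00000278050, was at 57.0 TPM in scramble library 1 and 49.7 TPM in hnRNP L library 2 and at 0 in the other 4 libraries, so reads of this region could be divided between both genes.

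NORAD and TUG1 were lower with hnRNP L siRNA in both libraries without passing the adjusted threshold. NORAD had a log2 fold change of -0.44 (95% interval -0.76 to -0.12, adjusted p = 0.0773), or 73.4% of the scramble mean. TUG1 was at 50.3 and 42.9 TPM with scramble siRNA, at 34.9 and 45.5 TPM with SETD2 siRNA, and at 33.1 and 37.0 TPM with hnRNP L siRNA. The hnRNP L libraries of TUG1 lay below both scramble libraries, while its SETD2 libraries straddled the lower scramble library. Its log2 fold change with hnRNP L siRNA was -0.40 (95% interval -0.73 to -0.07, adjusted p = 0.11).

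CYTOR was at 23.3 and 23.8 TPM with scramble siRNA, at 25.4 and 24.1 TPM with SETD2 siRNA, and at 30.7 and 28.1 TPM with hnRNP L siRNA. The hnRNP L libraries were highest and the SETD2 libraries were barely above scramble, and the log2 fold change with hnRNP L siRNA was 0.31 (95% interval 0.08 to 0.55, adjusted p = 0.0867). CYTOR has a near-identical relative, MIR4435-2HG, on the same chromosome. Windows of 75 bases, the read length, were identical in MIR4435-2HG for 59.9% of the canonical CYTOR transcript, so the division of reads between the genes is uncertain. MIR4435-2HG was at 15.3 and 18.2 TPM with scramble siRNA, at 18.6 and 14.0 TPM with SETD2 siRNA, and at 20.5 and 21.2 TPM with hnRNP L siRNA. It too was highest with hnRNP L siRNA, with a log2 fold change of 0.32 (adjusted p = 0.21).

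OIP5-AS1 stayed between 16.1 and 19.3 TPM in all 6 libraries. It was at 17.5 and 16.1 TPM with scramble siRNA, at 17.4 and 18.9 TPM with SETD2 siRNA, and at 19.3 and 18.9 TPM with hnRNP L siRNA. Its 95% interval for hnRNP L against scramble siRNA was -0.07 to 0.43 on the log2 scale (adjusted p = 0.314). Its annotated span overlaps OIP5 on the opposite strand, at 10 to 13.6 TPM, and NUSAP1 on the same strand, at 143 to 219 TPM, and the strand setting of the counting is not given in the sources used here. LINC-PINT was at 3.8 and 6.24 TPM with scramble siRNA, at 4.46 and 4.37 TPM with SETD2 siRNA, and at 5.87 and 7.11 TPM with hnRNP L siRNA. Its scramble libraries spanned the widest range of the 3 groups and overlapped both depletions, and its log2 fold change with hnRNP L siRNA was 0.37 (95% interval -0.10 to 0.85, adjusted p = 0.282). MIR17HG had one of 0.30 (95% interval -0.02 to 0.61, adjusted p = 0.197).

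**Figure D2:**
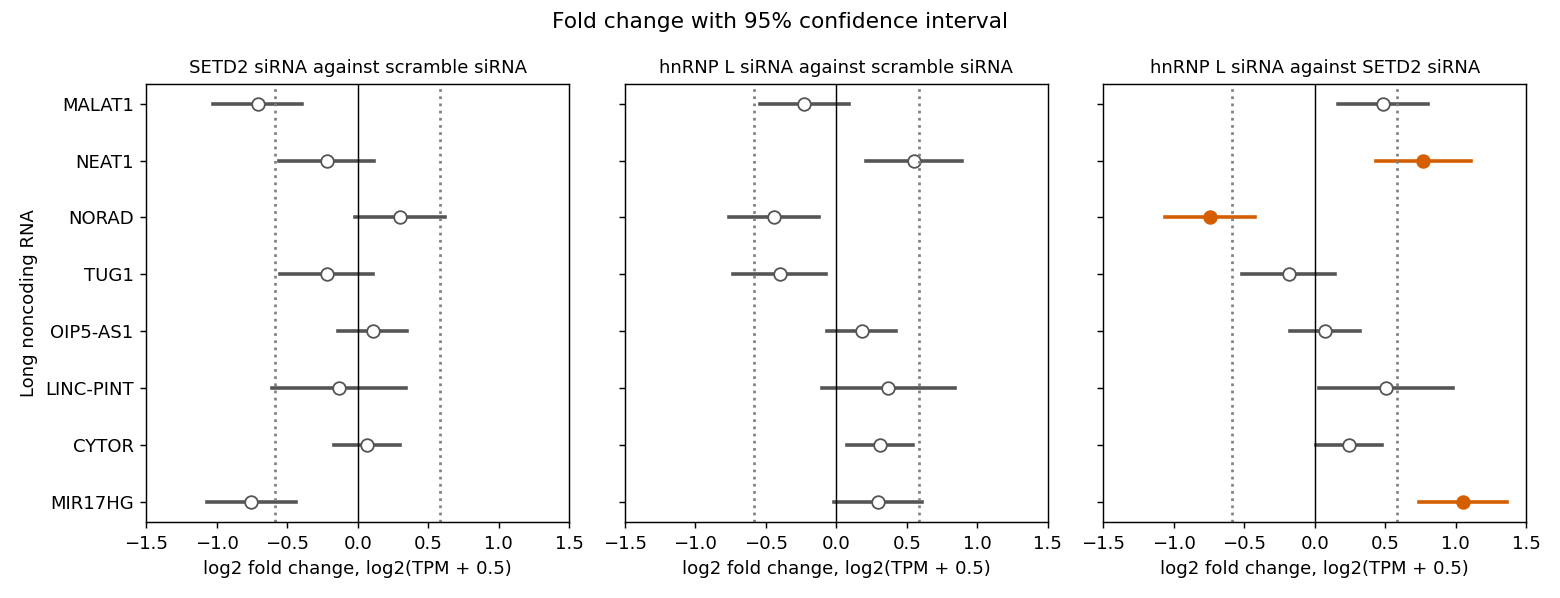
The log2 fold change of each tested long noncoding RNA is plotted for the 3 comparisons, with bars for the 95% interval from limma, dotted lines at a 1.5-fold change and filled orange points for calls. Calls appear only in the comparison of hnRNP L with SETD2 siRNA, for NEAT1, NORAD and MIR17HG.

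The direct comparison of hnRNP L with SETD2 siRNA tested whether the depletions left these RNAs at different levels. Of the 8 RNAs, 3 were called, MIR17HG and NEAT1 higher and NORAD lower with hnRNP L siRNA, against 6.84% of all tested genes (2.15% higher and 4.69% lower) and 13% of tested lncRNA genes (8.14% higher and 4.85% lower). At an unadjusted p under 0.05, 6 of the 8 passed, against 28.5% of all tested genes. Calls over the whole table were 350 higher and 765 lower, and 453 higher and 472 lower with median-ratio scaling. The groups did not overlap for 6 of the 8, against 59.8% of all tested genes.

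MIR17HG was 2.07-fold higher with hnRNP L than with SETD2 siRNA on the log2(TPM + 0.5) scale, a log2 difference of 1.05 (SE 0.14, 95% interval 0.74 to 1.37, limma adjusted p = 0.00474). NEAT1 was 1.71-fold higher, a log2 difference of 0.77 (SE 0.15, 95% interval 0.43 to 1.11, adjusted p = 0.0158). NORAD was at 59.3% of its level with SETD2 siRNA, a log2 difference of -0.74 (SE 0.14, 95% interval -1.06 to -0.42, adjusted p = 0.015). In each of the 3, every hnRNP L library lay on one side of every SETD2 library. These calls depended on having both libraries of each group, as leaving out SETD2 library 2, SETD2 library 3 or hnRNP L library 1 left none of the 3 called, and leaving out hnRNP L library 2 left MIR17HG. Adjusted p over those 4 fits ran from 0.0505 to 0.0647 for MIR17HG where it was not called, from 0.0658 to 0.119 for NEAT1 and from 0.0624 to 0.143 for NORAD.

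The remaining RNAs were not called in the direct comparison. MALAT1 was higher with hnRNP L siRNA by 0.48 on the log2 scale (95% interval 0.17 to 0.80, adjusted p = 0.06), LINC-PINT by 0.50 (95% interval 0.03 to 0.98, adjusted p = 0.154) and CYTOR by 0.25 (95% interval 0.01 to 0.48, adjusted p = 0.156). TUG1 had a difference of -0.18 (95% interval -0.51 to 0.15), which turned to 0.003 without SETD2 library 3, and OIP5-AS1 had one of 0.07 (95% interval -0.17 to 0.32).

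Ratios between RNAs of the same library do not depend on the scaling of that library. NEAT1 over MALAT1, the pair that lies side by side on chromosome 11, was 2.09 and 1.9 with scramble siRNA, 2.46 and 3.22 with SETD2 siRNA, and 2.99 and 3.93 with hnRNP L siRNA. The ratio was lowest with scramble siRNA, and both depletions overlapped each other. NORAD over TUG1 was 1.01 in both scramble libraries, 1.5 and 1.41 with SETD2 siRNA, and 0.954 and 1.02 with hnRNP L siRNA, so that the SETD2 libraries stood above the other 4. MIR17HG over OIP5-AS1 was 0.685 and 0.625 with scramble siRNA, 0.382 and 0.317 with SETD2 siRNA, and 0.76 and 0.669 with hnRNP L siRNA. For this ratio the SETD2 libraries lay below the other 4, as they did for MIR17HG alone, since OIP5-AS1 ran only from 16.1 to 19.3 TPM. NEAT1 over NORAD was 1.77 and 1.59 with scramble siRNA, 1.28 and 1.06 with SETD2 siRNA, and 3.28 and 3.46 with hnRNP L siRNA, with no overlap between any groups. The groups of NEAT1 and of NORAD already stood apart in opposite orders, so this follows from their levels. All these ratios reuse the TPM values above and are not separate support for them. For a single ratio, the smallest two-sided p of an exact permutation test with 2 libraries on each side is 0.333.

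**Figure D3:**
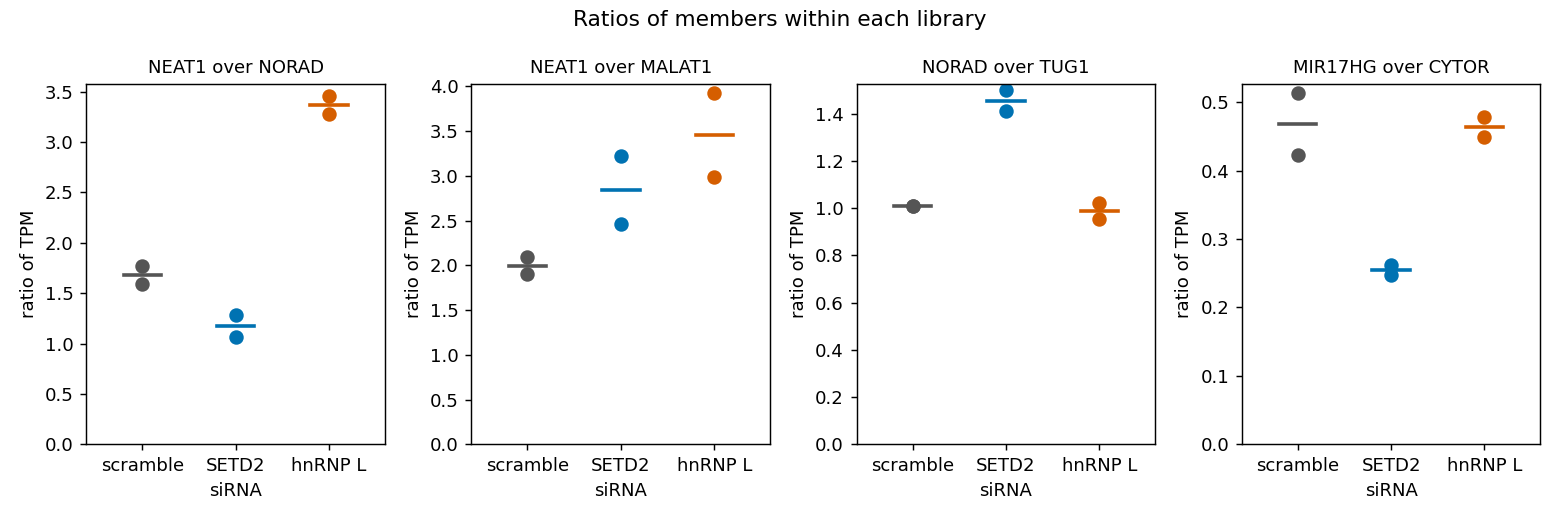
Ratios of TPM between pairs of long noncoding RNAs of the same library are plotted, 1 point per library, by siRNA. NEAT1 over NORAD is highest in both hnRNP L libraries, at 3.28 and 3.46, and MIR17HG over CYTOR is lowest in both SETD2 libraries, at 0.262 and 0.248.

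The protein partners and pathways of these RNAs were then described from gene lists, which were also chosen with earlier results of these data known. Counts of list genes at an unadjusted p under 0.05 stand beside 13.1% of all tested genes for SETD2 against scramble siRNA, 28.4% for hnRNP L against scramble siRNA and 28.5% for the direct comparison. Of 14 tested paraspeckle proteins, the partners of NEAT1, none was called with SETD2 siRNA in limma (3 at an unadjusted p under 0.05). DAZAP1, an RNA-binding protein, was the one called with hnRNP L siRNA (2 at an unadjusted p under 0.05). DAZAP1 was lower, with means of 132 TPM against 256 TPM with scramble siRNA and a log2 fold change of -0.96 (adjusted p = 0.00455). The list's median log2 fold changes were 0.123 after SETD2 and 0.0133 after hnRNP L depletion. Of 10 tested nuclear speckle proteins, which surround MALAT1, none was called in limma against scramble siRNA (at an unadjusted p under 0.05, 0 with SETD2 and 4 with hnRNP L siRNA). The splicing factor SRSF3 was lower with hnRNP L than with SETD2 siRNA, by a log2 change of -0.62 (adjusted p = 0.0144).

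Of 13 tested genes for the processing of the MALAT1 3′ end, by RNase P and RNase Z, none was called in any comparison in limma (unadjusted p under 0.05 for 2 genes with SETD2 siRNA, 3 with hnRNP L siRNA and 3 directly compared). RPPH1, the RNA subunit of RNase P, had the largest log2 fold change with SETD2 siRNA, 1.24 (adjusted p = 0.274), from 1.42 and 2.03 TPM to 2.76 and 7.76 TPM. Of 10 tested genes for the decay of nuclear RNA, none was called against scramble siRNA in limma, with 5 at an unadjusted p under 0.05 after SETD2 and 1 after hnRNP L depletion. The 5 went both ways with SETD2 siRNA, RBM7, EXOSC3 and ZC3H18 having log2 fold changes of 0.36 to 0.38 and ZFC3H1 and EXOSC10 of -0.62 and -0.33. EXOSC3, an exosome subunit, was lower with hnRNP L than with SETD2 siRNA by a log2 change of -0.59 (adjusted p = 0.0181).

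Around MIR17HG, 11 genes that process or load miRNAs were tested. None was called with SETD2 siRNA in limma (at an unadjusted p under 0.05, 2 with SETD2 and 5 with hnRNP L siRNA). With hnRNP L siRNA the Argonaute genes AGO2 and AGO3, whose proteins bind the mature miRNA, were higher. AGO2 rose from 8.3 and 9.49 TPM to 18.5 and 24.03 TPM, a log2 fold change of 1.20 (adjusted p = 0.00327), and AGO3 from 5.49 and 5.59 TPM to 9.68 and 10.6 TPM, one of 0.82 (adjusted p = 0.00772). Of 10 tested genes reported as targets of the cluster, none was called in limma against scramble siRNA, with 2 at an unadjusted p under 0.05 after SETD2 and 5 after hnRNP L depletion. The median log2 fold change of these targets was -0.0552 with SETD2 siRNA and -0.297 with hnRNP L siRNA.

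p53 targets were listed because LINC-PINT is induced by p53. Of 10 tested, none was called with SETD2 siRNA in limma, with 8 at an unadjusted p under 0.05 against 13.1% of all tested genes. Of these 8, 7 had positive log2 fold changes and FAS, a death receptor gene, had one of -0.59 (adjusted p = 0.184), and the median over the list was 0.395. With hnRNP L siRNA 4 of the 10 had an unadjusted p under 0.05 in limma. MDM2, the ubiquitin ligase for p53, was lower with hnRNP L siRNA by a log2 change of -0.70 (adjusted p = 0.0102). Directly compared, 7 of the 10 were lower with hnRNP L than with SETD2 siRNA, against 4.69% of all tested genes called lower. CDKN1A, the cell cycle inhibitor p21, led these. Its scramble libraries were at 15.7 and 21.0 TPM, its SETD2 libraries at 29.4 and 26.5 TPM and its hnRNP L libraries at 11.7 and 12.6 TPM. The groups did not overlap, and the log2 difference between the depletions was -1.17 (adjusted p = 0.00401). CDKN1A is also counted among the miR-17-92 targets.

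KCNQ1OT1, the antisense RNA that silences its imprinted domain on the paternal chromosome, was too low to test. Of the 12 listed genes of that domain, 9 were tested. None was called with SETD2 siRNA in limma (at an unadjusted p under 0.05, 1 with SETD2 and 6 with hnRNP L siRNA). With hnRNP L siRNA SLC22A18, a transporter gene, was lower by a log2 change of -1.34 (adjusted p = 0.00894), from 4.96 and 3.93 TPM to 1.81 and 1.14 TPM. CDKN1C, an imprinted cell cycle inhibitor of the domain, stayed between 3.38 and 4.41 TPM in all 6 libraries. A further list held genes that lie opposite or beside the 9 RNAs, and MIR4435-2HG, the relative of CYTOR, which the next list also counts. Of the 9 genes tested from this further list, none was called in any comparison in limma. At an unadjusted p under 0.05 there were 2 for each depletion against scramble siRNA and 1 directly compared.

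Of 22 other named long noncoding RNAs, 19 were tested. With SETD2 siRNA none was called in limma (at an unadjusted p under 0.05, 3 with SETD2 and 11 with hnRNP L siRNA). With hnRNP L siRNA LINC00467 rose from 4.39 and 4.67 TPM to 10.4 and 11.7 TPM, a log2 fold change of 1.20 (adjusted p = 0.00232), and PURPL, a p53-regulated RNA, fell from 11.8 and 11.5 TPM to 7 and 7.07 TPM, one of -0.69 (adjusted p = 0.0105). PURPL was at 17.0 and 15.1 TPM with SETD2 siRNA, above both scramble libraries. Against SETD2 siRNA, LINC00467 and LINC00665 were higher with hnRNP L siRNA by 1.39 and 0.87 on the log2 scale, and PURPL was lower by a log2 change of -1.13.

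**Figure D4:**
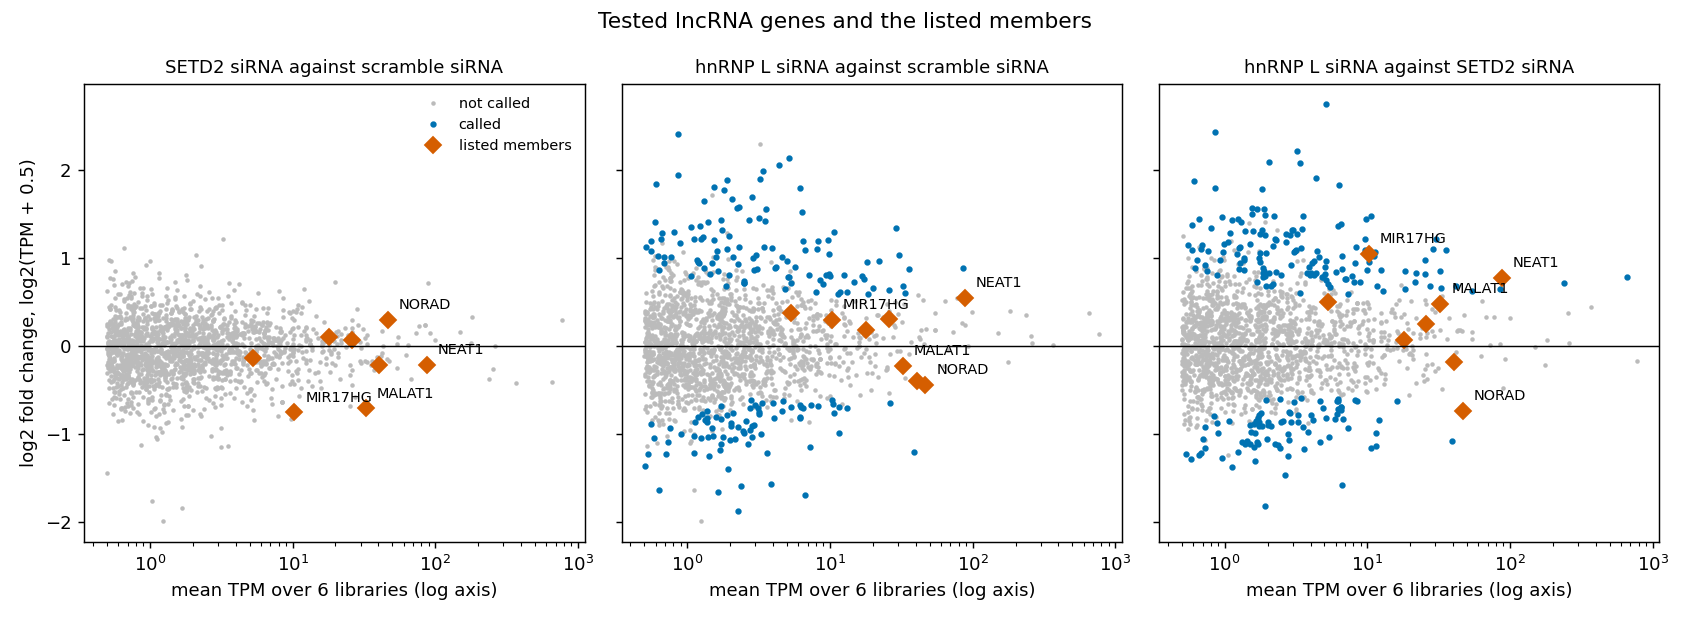
The log2 fold change of each tested gene annotated as lncRNA is plotted against its mean TPM on a log10 axis, 1 panel per comparison, with diamonds for the 8 tested RNAs of the group. In the hnRNP L comparisons called genes, 10.6% and 13% of the tested lncRNA genes, lie on both sides of 0, and the diamonds lie toward the right, above the median level of 1.65 TPM.

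Finally, the genes whose pattern over the 6 libraries was most like that of each RNA were found among 10352 tested genes with a mean of at least 5 TPM, by Pearson's r of log2(TPM + 0.5). The points share 3 siRNA groups and 1 scaling per library, so these r are descriptions over 6 libraries. With 6 libraries and 10352 candidates, high r can also arise between unrelated genes, which was not tested. MALAT1 was nearest to CACYBPP2 (r = 0.9729) and to CCNL2 (r = 0.9703), a cyclin of nuclear speckles. TUG1 was nearest to CCNT2 (r = 0.9949) and CCNT1 (r = 0.9906), the cyclins of the elongation factor P-TEFb. NEAT1 was nearest to GRTP1 (r = 0.9963) and ZNF397 (r = 0.9914), and NORAD to FANCC (r = 0.9965) and SPG7 (r = 0.9963). CYTOR was nearest to GEMIN6 (r = 0.9972) and IQSEC2 (r = 0.9913), and OIP5-AS1 to CHERP (r = 0.9909) and EPAS1 (r = 0.9741). LINC-PINT was nearest to COQ9 (r = 0.9903) and CRABP2 (r = 0.9882), and MIR17HG to AC015813.2 (r = 0.9947) and SIDT2 (r = 0.9897). An r above 0.95 was shared with 194 genes by NORAD and with 133 by TUG1, but with only 5 by MALAT1 and 7 by OIP5-AS1.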

How the data were processed

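The 6 RNA-seq libraries of 293T cells were used, grouped by siRNA and numbered as in the sample labels, and the ChIP-seq samples were not used here. By the study's methods, reads were aligned with STAR 2.6.1c to hg38 and the gene models of Ensembl release 96. The deposited values are TPM, which the authors computed for every gene with RSEM 1.3.0. Whether counting used strand is not given in the sources used here, so overlapping antisense genes may share reads. TPM hold no depth, so no counting interval can be given.

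Tests and fold changes are on log2(TPM + 0.5), where the change of low genes comes out too small. Genes with a mean of at least 0.5 TPM, 16300 of all biotypes, entered a limma fit (version 3.58.1, R 4.3.3) of all 6 libraries with a mean for each siRNA and a variance trend, and p-values were adjusted after Benjamini-Hochberg over these genes. The cut-offs for calls were an adjusted p of 0.05 and a 1.5-fold change. The fit was tested on simulated data. The 9 RNAs and all gene lists were chosen with earlier results of these data known. At most 4 called genes of a list are named, those with the largest change, or up to 2 where none was called. CDKN1C, FAS, RMRP, RN7SK and the nuclear decay genes other than EXOSC3 and ZFC3H1 are named outside this rule. Results for some listed genes are not reported here. Coordinates and transcripts are from GENCODE 44 on hg38, where TUG1 is annotated as protein-coding, and miRNAs are from RefSeq. Plots were drawn with Matplotlib 3.10.9.

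Alternatives were other pseudocounts, filters, scalings and fold changes, protein-coding and lncRNA genes only, only the 2 groups compared, no variance trend, leaving out each library, and a replicate block. Scramble and hnRNP L libraries share the numbers 1 and 2, and SETD2 libraries share only number 2 with them.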

Additional observations from a re-analysis of the deposited data

Results flagged for a closer look

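Of the tested long noncoding RNAs, 3 differed between the depletions in limma's direct test of hnRNP L against SETD2 siRNA. In each the depletions lay on opposite sides of scramble siRNA, but none of the 3 was called against scramble siRNA with either depletion. MIR17HG had a log2 difference of 1.05 (adjusted p = 0.00474), NEAT1 one of 0.77 (adjusted p = 0.0158) and NORAD one of -0.74 (adjusted p = 0.015), and in each both hnRNP L libraries lay on the same side of both SETD2 libraries. Groups of 2 libraries are too small to look for an outlying library.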

How the results depend on the processing

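The count of RNAs called stayed 0 for SETD2 against scramble siRNA except with protein-coding and lncRNA genes only, where it was 2 (MALAT1 and MIR17HG), and 0 to 2 with a library left out as well, an alternative chosen after seeing the data. For hnRNP L against scramble siRNA it was 1 (NEAT1) with median-ratio scaling and with no fold-change cut-off, and 0 otherwise. Directly compared, it moved from 3 to 0 with no filter (adjusted p 0.055 for MIR17HG, 0.0945 for NORAD and 0.103 for NEAT1), to 1 with a fold change above 2, and to 0 to 3 with a library left out. The directions that turned were CYTOR with SETD2 siRNA (-0.029, TPM rescaled without mitochondrially encoded genes), LINC-PINT with SETD2 siRNA (0.193 without scramble library 2, in both gene sets, and -0.456 without scramble library 1) and TUG1 in the direct comparison (0.003 without SETD2 library 3 and -0.372 without SETD2 library 2). The cause of these changes was not tested. Where a library is left out, the lone library is assumed to vary like the other groups.

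The replicate numbers did not pair the scramble and hnRNP L libraries (correlation of deviations -0.126). With the number as a block 0 RNAs were called, and 715 genes of all those tested in place of 1102. With the numbers crossed, chosen after seeing the data, 0 RNAs and 1406 genes were called. No block was fitted for SETD2 siRNA, since only number 2 is shared with the others and its comparison would rest on SETD2 library 2 alone. Over the other alternatives the whole table gave 1 to 125 calls for SETD2 siRNA, 172 to 1826 for hnRNP L siRNA and 127 to 1753 for the direct comparison, against 17, 1102 and 1115. TPM without counts leaves the depth behind low values such as LINC-PINT and KCNQ1OT1 unknown.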
